A study of Mus musculus with 2 samples.

Results

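The regions described here are the accessible sites of 1 stretch of mouse chromosome 14 (chr14:69200001-71800000, build mm9, 2.6 Mb) in early thymic progenitors with and without the E proteins E2A and HEB. All peaks of both libraries whose centre lies in the stretch are members: 177 of the 85764 wild-type peaks and 56 of the 69896 double-knockout peaks. Counting an overlapping pair once, these are 195 regions of 103454. The stretch was chosen by its surplus of wild-type peaks with no double-knockout counterpart, as adjoining 200 kb windows that each had at least 4 more wild-type-only than double-knockout-only peaks. Its counts by class, and every other value that sets the genotypes side by side there, are therefore descriptions and were given no test. The adjoining 2.6 Mb on each side served for comparison.

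Early thymic progenitors are the least mature cells of the thymus that can still form T cells. They were sorted from fetal thymus of C57BL/6 mice as cells without CD4, CD8 and lineage markers, CD44-positive, CD25-negative and ckit-positive. One library came from wild-type animals, and the other from animals of the genotype E2Afl/flHEBfl/flIL7RCre, called the double knockout below, in which the Cre recombinase is driven from the IL7R locus and the sort also required YFP. The sources used here do not say how many animals were pooled or how complete the deletion was, and the YFP gate cannot be told apart from the genotype. With 1 library per genotype there is no replicate check on any value.

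The 2 E proteins carry a basic helix-loop-helix domain, pair with each other on E-box motifs and promote the expression of T lineage genes, while Id proteins hold them in check. In ATAC-seq a transposase inserts adapters where DNA is accessible, so that enhancers and promoters in use appear as peaks. Accessible sites of 1 chromosomal neighbourhood often open or close together. Each deposited peak is 151 bp wide and carries a score of the authors whose unit is not stated. The score is given below as a percentile within its own list, where 100 is the strongest peak, because scores of different lists are not on a known common scale. A peak list does not separate the accessibility of a site from the number of DNA copies of its surroundings, and copy number in these libraries was not tested.

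This region of chromosome 14 is known to carry a dense series of genes, and the list used here, drawn from general knowledge, holds 33 of them, from Stc1 to Gfra2. All 33 were found in the RefSeq table of build GRCm38, in the listed order, with 40 protein-coding genes from the first to the last. They include Slc25a37, which encodes mitoferrin, the mitochondrial iron importer of developing red cells. Further along come Tnfrsf10b, a death receptor for TRAIL, and Egr3, a zinc finger factor induced by antigen receptor signals in thymocytes. Slc39a14, a metal ion importer, and Bmp1, a protease that processes procollagen, follow. Dok2, an adaptor that dampens tyrosine kinase signals in blood cells, and Gfra2, a receptor for neurturin, lie towards the far end. The table is of another build than the peaks, so no peak was assigned to a gene, and whether the outermost genes fall inside the limits was not checked. For the same reason the identity of the sorted cells was not checked against marker genes.

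In number of peaks the stretch differed from its flanks mainly in the wild type, a contrast that its choice by a wild-type-only surplus favours. The wild type had 177 peaks there, or 6.81 per 100 kb, against 107 in the left flank and 79 in the right flank, or 4.12 and 3.04 per 100 kb. The double knockout had 56 peaks in the stretch, which lies between its 70 and 54 peaks in the left and right flanks. By rank these differed too, with a median percentile of 37.9 in the stretch against 52.0 and 53.9 in the left and right flanks. There were thus 0.316 double-knockout peaks per wild-type peak in the stretch, against 0.654 and 0.684 in the flanks and 0.815 over the whole lists. Neighbouring wild-type peaks were a median of 8.44 kb apart in the stretch and 11.1 kb apart over the genome.

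Of the 177 wild-type peaks, 139 overlapped no double-knockout peak. This is 78.5% (exact Clopper-Pearson 95% interval 71.7 to 84.3%), beside 39.1% of all wild-type peaks, 48.6% (38.8 to 58.5%) in the left flank and 59.5% (47.9 to 70.4%) in the right flank. Both flanks also had a larger wild-type-only part than the genome, though smaller than the stretch. For the left flank the interval includes the genome value of 39.1%. Neither flank was uniform. In the right flank, the windows chr14:72800001-73000000 and chr14:73000001-73200000 held 6 and 8 wild-type peaks, all wild-type-only. Further out, chr14:73400001-73600000 and chr14:73600001-73800000 held 13 and 18, of which 5 and 5 were wild-type-only. The remaining 38 wild-type peaks each had a partner in the double knockout. From the other side, 18 of the 56 double-knockout peaks, or 32.1% (20.3 to 46.0%), had no wild-type partner, beside 25.3% of all double-knockout peaks. These intervals cover counting error over peaks only, take neighbouring peaks as independent and make no allowance for the choice of the stretch.

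**Figure D1:**
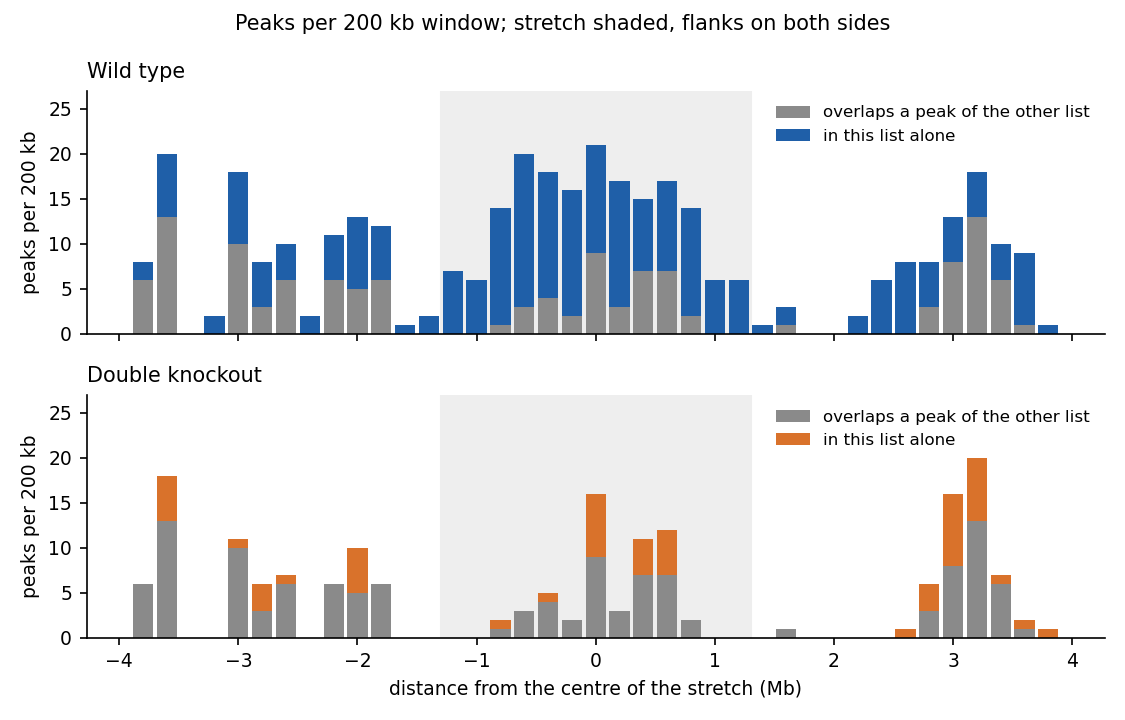
Peaks per 200 kb window against distance from the centre of the stretch, in Mb, for the wild type (top) and the double knockout (bottom). Bars are divided into peaks that overlap the other list (grey) and peaks of that list alone (colour). All 13 windows of the shaded stretch hold more wild-type-only than double-knockout-only peaks, as its rule required. So do 12 of the 13 windows of the left flank and 8 of the 13 of the right flank. The 4 outermost windows of the stretch hold no double-knockout peak, and neither do 5 windows of each flank.

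Among 706 pieces of the genome of this length with at least 50 wild-type peaks, cut without overlap, the stretch had the lowest share of wild-type peaks overlapped, at 21.5%. The others ranged from 35.0 to 81.6% with a median of 59.8%. It also had the lowest number of double-knockout peaks per wild-type peak, where the others ranged from 0.420 to 1.41. It was not the densest piece, since it came 57th from the highest in wild-type peaks. As the stretch was picked for its surplus, its place in these orders is a description of how far it lies from the next piece. Its limits were set from windows of high surplus and those of the other pieces were not, so that distance is not like for like.

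The 13 windows of 200 kb in the stretch held between 6 and 21 wild-type peaks each (median 15), and between 0 and 16 double-knockout peaks (median 2). The double-knockout peaks were bunched: 39 of 56 lay in 3 windows, chr14:70400001-70600000, chr14:70800001-71000000 and chr14:71000001-71200000. In these, 23 of 53 wild-type peaks were overlapped, or 43.4% (29.8 to 57.7%). In the other 10 windows, 15 of 124 were overlapped, or 12.1% (6.93 to 19.2%). The windows were picked for their double-knockout peaks, so the contrast describes where the remaining sites sit. The division was not sharp, since the other 10 windows still held 17 double-knockout peaks. In the 3 picked windows, 30 of the 53 wild-type peaks were wild-type-only.

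The outer parts held no double-knockout peak at all. Over the first 442 kb of the stretch, up to its first double-knockout peak, the wild type had 14 peaks with a median percentile of 46.5. Over the last 406 kb it had 12, with a median percentile of 48.0. Between these, 1752 kb held the other 151 wild-type peaks and all 56 double-knockout peaks.

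At the left limit of the stretch the 2 wild-type peaks just outside, at chr14:69112284-69112434 and chr14:69175048-69175198, had percentiles of 46.7 and 16.1. The 2 just inside, at chr14:69211544-69211694 and chr14:69228936-69229086, had percentiles of 79.4 and 39.5, and all 4 were absent from the double-knockout list. The nearest double-knockout peaks were a shared one at chr14:68769415-68769565, 431 kb before the limit, and another at chr14:69642353-69642503, 442 kb after it. At the right limit, the last wild-type peaks inside, at chr14:71659880-71660030 and chr14:71676099-71676249, had percentiles of 26.4 and 40.4. The first outside, at chr14:71946956-71947106, had a percentile of 40.4 and was again wild-type-only, while the second, at chr14:72020781-72020931, was shared and stood at percentile 64.6. Neither limit therefore separated unlike peaks, since wild-type peaks without a counterpart lay on both sides of each.

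Edges were also drawn from single peaks, as the segment of the chromosome with the highest sum when each wild-type-only peak counted plus 1 and each shared region or double-knockout-only peak minus 1. This segment was wider than the stretch, at 5.22 Mb (chr14:67962550-73178009), and held 186 wild-type-only peaks against 81 other regions. At its left edge the wild-type peaks changed from shared sites at chr14:67853317-67853467 and chr14:67891193-67891343 (percentiles 84.0 and 78.7) to wild-type-only sites at chr14:67962550-67962700 and chr14:67963414-67963564 (26.4 and 20.2). At its right edge they changed from wild-type-only sites at chr14:73140297-73140447 and chr14:73177859-73178009 (27.5 and 62.4) to shared ones at chr14:73222099-73222249 and chr14:73229191-73229341 (57.5 and 39.5). In the double-knockout list the last 2 peaks before that edge were a shared one at chr14:72020733-72020883 (percentile 28.5) and 1 without a wild-type partner at chr14:73109479-73109629 (82.6). The first 2 after it, at chr14:73222112-73222262 and chr14:73229195-73229345, were the partners of the shared pair just named. At the left edge the double-knockout peaks on both sides were shared, with chr14:67853327-67853477 (percentile 73.2) and chr14:67891189-67891339 (34.3) before it, and chr14:67977855-67978005 (47.4) and chr14:68226444-68226594 after it, the latter at a score of 3.61. With a count of minus 2 the segment shrank to 1.45 Mb (chr14:68963730-70410691), and with minus 0.5 it grew to 55.3 Mb (chr14:66051622-121366578). The peaks thus set no firm edge.

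Long intervals without a double-knockout peak carried most of the surplus. The choice of the stretch by that surplus favours such intervals, and the stretch held 56 of the 69896 double-knockout peaks that bound them. Of the 69876 intervals between successive double-knockout peaks of the genome, 25 held 10 or more wild-type peaks, and 6 of these 25 touched the stretch. One of them straddled its left limit (chr14:68769566-69642352, 873 kb) and held 17 wild-type peaks, and another straddled its right limit (chr14:71394385-72020732, 626 kb) and held 13. A further interval with 17 wild-type peaks measured only 163 kb (chr14:69903223-70066241). The interval of the genome with the most wild-type peaks was on chromosome 12, 606 kb long, and held 24. In the right flank another, 1089 kb long (chr14:72020884-73109478), held 15.

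Within the stretch, successive wild-type-only peaks formed 36 runs uninterrupted by a shared or double-knockout-only peak. The 8 runs of at least 5 peaks held 93 of the 139. The longest, of 17 peaks over 124 kb (chr14:69937756-70061733), was also strong, with a median percentile of 74.0 and a range of 16.1 to 94.98. The next, at 14 peaks each, were weaker: chr14:69211544-69635110 over 424 kb had a median percentile of 46.5 (3.28 to 79.4), and chr14:69648079-69854265 over 206 kb one of 39.1 (8.51 to 84.3). The first run thus carried a cluster of sites from the upper part of the wild-type list.

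The wild-type-only peaks of the stretch were spread widely over the wild-type list, with quartiles at percentiles 25.2 and 70.3, beside 25.2 and 74.9 for the whole list. Their scores ran from 2.96 to 39.4 with a median of 7.56, which is a median percentile of 47.4 (order-statistic 95% interval 40.4 to 53.3). The corresponding medians were 31.3 (21.5 to 49.5) in the left flank, 36.8 (27.5 to 46.7) in the right flank and 28.6 for wild-type-only peaks of the whole list. The wild-type peaks of the stretch as a whole had a median percentile of 52.1, beside 50.2 for the list they come from. In the upper 50% of the wild-type list, 67 of 97 peaks of the stretch had no partner, or 69.1%, beside 20.5% of all wild-type peaks of that rank. This share was 32.7% in the left flank and 35.1% in the right flank. In the strongest 10%, 5 of 15 peaks of the stretch had no partner, beside 6.63% of all such peaks. In the left and right flanks these were 2 of 10 and 1 of 4.

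**Figure D2:**
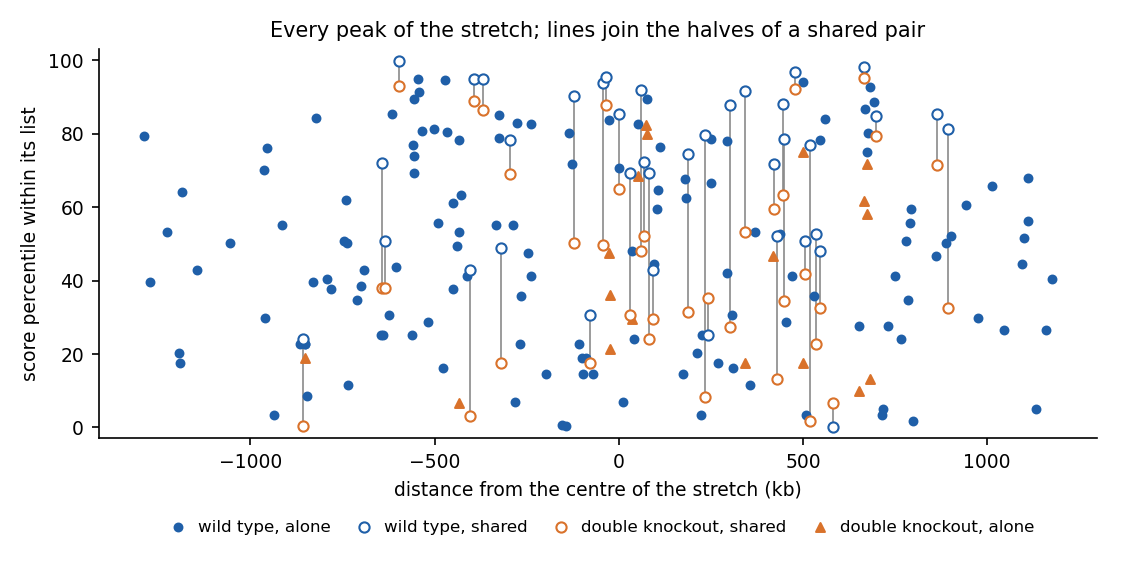
Every peak of the stretch by its distance from the centre, in kb, and its score percentile within its own list. Filled blue points are wild-type-only peaks, open points joined by a line are the 38 shared pairs (blue wild type, orange double knockout) and orange triangles are the 18 double-knockout-only peaks; in 36 pairs the orange point lies below the blue one.

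The 2 strongest wild-type-only peaks lay in the strong run described above. The first, at chr14:69955204-69955354, had a score of 39.4 (percentile 94.98), and its nearest double-knockout peak was 52.0 kb away. The second, at chr14:70029262-70029412, had a score of 38.6 (percentile 94.7), with the nearest double-knockout peak 36.8 kb away. Both were among the strongest 10% of the wild-type list and had no double-knockout peak within 5 kb. In the same run, the peak at chr14:69957488-69957638 had a score of 30.1 (percentile 91.4) and was 54.3 kb from the nearest double-knockout peak. The peak at chr14:69943959-69944109 had a score of 26.7 (percentile 89.5), and that distance was 40.7 kb. Just before the run, the peak at chr14:69885424-69885574 had a score of 21.6 (percentile 85.4) and a distance of 17.5 kb. These 5 of the 10 strongest were thus isolated from any remaining double-knockout site.

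The other 5 lay nearer to double-knockout peaks. The peak at chr14:70999335-70999485, with a score of 36.4 (percentile 94.0), had one 119 bp away, and that at chr14:71180962-71181112, with a score of 33.1 (percentile 92.8), one 162 bp away. The peak at chr14:70575408-70575558, with a score of 26.7 (percentile 89.5), had one at 83 bp. The rest were chr14:71192563-71192713, with a score of 25.6 (percentile 88.8) and a distance of 5.84 kb, and chr14:71167401-71167551, with a score of 23.0 (percentile 86.8) and a distance of 775 bp. In 3 of these 5 cases a peak of each list lay within 500 bp of the other without touching it. A fixed width of 151 bp lets 1 broader site give a peak at a different spot in either list, and whether these are single sites was not tested.

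Over all 139, a double-knockout peak lay within 500 bp of 11 and between 500 bp and 5 kb from 13, while 115 had none within 5 kb. Those 115 are 65.0% of the wild-type peaks of the stretch, beside 22.4% of all wild-type peaks, 29.0% in the left flank and 43.0% in the right flank. The median distance from a wild-type-only peak to the nearest double-knockout peak was 19.7 kb in the stretch, 13.5 kb in the flanks together and 6.67 kb over the genome. Among wild-type-only peaks alone, those with none within 5 kb made up 82.7% in the stretch, 65.7% in the flanks and 57.4% over the genome, so that most such peaks were this far from a double-knockout peak everywhere.

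The choice of the stretch fixes a low overlapped share, and its division by score is given as a description. When the wild-type list was divided by score into 10 deciles, the overlapped share outside the stretch ran from 23.0% in the weakest to 93.4% in the strongest decile. Inside it, the share was lower in all 10 deciles. In the strongest decile 10 of 15 peaks were overlapped, or 66.7% (38.4 to 88.2%). In the decile below it, these were 6 of 23, or 26.1% (10.2 to 48.4%), against 86.8% elsewhere. The flanks had 11 of 14 and 10 of 17 overlapped in these deciles, or 78.6% (49.2 to 95.3%) and 58.8% (32.9 to 81.6%).

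The 38 kept pairs had a median wild-type percentile of 77.6 (69.3 to 85.4), against 47.4 for the wild-type-only peaks of the stretch and 63.7 for all shared peaks. In the double-knockout list the same sites had a median percentile of 37.9 (30.5 to 53.1), against 56.7 for all shared peaks. Scores of the pairs ran from 2.85 to 80.2 in the wild type and from 2.87 to 49.3 in the double knockout. Of the 38, 30 were in the upper 50% of the wild-type list and 15 in the upper 50% of the double-knockout list, and all 15 were among the 30. The kept sites were thus mostly of the upper 50% in the wild type, although 67 of the 97 peaks of the stretch in that range were not kept. Shared peaks were mostly of the upper 50% elsewhere too. The flanks had 61 shared wild-type peaks in the upper 50% and 26 in the lower 50%. All of the genome outside the stretch had 34186 and 17982.

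In 36 of the 38 pairs the percentile was lower in the double knockout, beside 64.4% of all shared pairs. The median difference, double knockout minus wild type, was -22.14 percentile points (order-statistic 95% interval -38.77 to -12.95). It was -4.53 (-11.11 to 0.43) for the 55 pairs of the left flank, -2.94 (-11.96 to 12.12) for the 32 of the right flank and -2.67 for all shared pairs. A difference of -20 points or beyond was found in 21 of the 38 pairs, beside 17.8% of all shared pairs, and in 25 of the 87 flank pairs. Because weak wild-type-only peaks lift the percentiles of shared peaks in the longer list, the pairs were also ranked among shared peaks only. The median difference was then -17.50 points (-29.57 to -7.17) in the stretch against 0.55 over the genome, and 36 pairs were again lower, beside 46.9% of all shared pairs. Among the 706 pieces of the genome, the median difference in the stretch was the fourth lowest, with the lowest at -27.20.

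**Figure D3:**
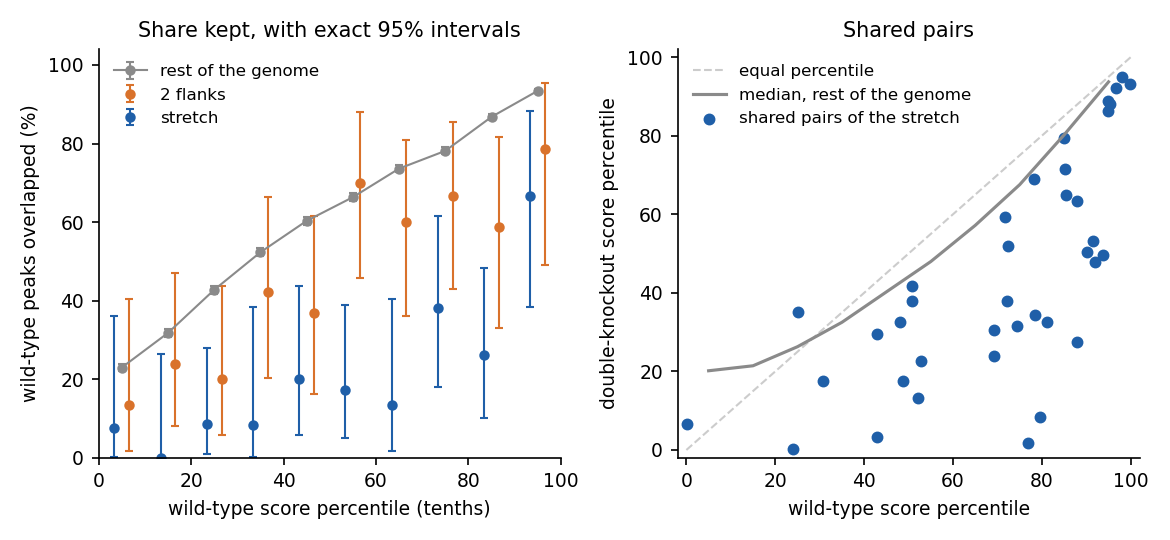
Left, percentage of wild-type peaks overlapped by a double-knockout peak, by decile of the wild-type list, with exact 95% intervals, for the stretch (blue), its 2 flanks (orange) and the rest of the genome (grey). Right, double-knockout against wild-type score percentile of the 38 shared pairs; 35 lie below the median of the rest of the genome for their decile (grey line).

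The 5 strongest kept sites stood near the top of both lists. The strongest in the wild type, at chr14:69903083-69903233, had a score of 80.2 (percentile 99.8) there and of 42.1 (percentile 93.0) in the double knockout. The site at chr14:71166480-71166630 scored 54.9 (percentile 98.1) and 49.3 (percentile 95.05), and was the strongest of the stretch in the double knockout. At chr14:70977511-70977661 the scores were 46.7 (percentile 96.7) and 39.6 (percentile 92.2). These 3 were the only sites of the stretch in the strongest 10% of the double-knockout list, where the wild type had 15. At chr14:70465754-70465904 the scores were 41.2 (percentile 95.4) and 30 (percentile 87.9), and at chr14:70107331-70107481 they were 39.4 (percentile 94.98) and 31.7 (percentile 88.8). Together with the sixth site, the strongest kept pairs differed by -3.06 to -8.53 points.

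Right below them, 4 kept sites were also in the strongest 10% of the wild-type list, at percentiles 90.2 to 93.8, but stood at percentiles of only 48.0 to 53.1 in the double knockout. Shared peaks of that whole wild-type decile elsewhere, up to percentile 100, had a median double-knockout percentile of 93.7. The 4 sites lie in the lower part of this range, and the median for the decile below it was 80.2. The 10 kept sites of this decile were thus divided into 6 that held a high rank and 4 that did not.

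The 5 largest differences were at sites with wild-type percentiles between 69.3 and 87.8. The site at chr14:71017904-71018054 had a score of 15.4 (percentile 76.9) in the wild type and of 3.08 (percentile 1.69) in the double knockout, a difference of -75.16 points. At chr14:70733495-70733645 the scores were 17.0 (percentile 79.6) and 3.50 (percentile 8.34), a difference of -71.27 points. Both sites were thus among the weakest of the double-knockout list. At chr14:70802316-70802466 the scores were 24.3 (percentile 87.8) and 4.99 (percentile 27.4), a difference of -60.38 points. The sites at chr14:71394220-71394370, with percentiles of 81.2 and 32.5, and chr14:70581054-70581204, with 69.3 and 23.98, differed by -48.75 and -45.33 points. The first of these is also the last shared site before the right-hand part without double-knockout peaks.

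Only 2 kept sites had a higher percentile in the double knockout, and both were weak. The site at chr14:70740966-70741116 had a score of 4.93 (percentile 25.2) in the wild type and 5.84 (percentile 35.2) in the double knockout, a difference of 9.99 points. At chr14:71082036-71082186 the scores were 2.85 (percentile 0.117) and 3.40 (percentile 6.66), a difference of 6.55 points. Next in this order came sites with slightly lower percentiles, namely the strong ones at chr14:71166480-71166630 (-3.06 points) and chr14:70977511-70977661 (-4.57) and another at chr14:71198452-71198602 (-5.44). No kept site of the upper 50% of the wild-type list ranked higher in the double knockout. Outside the stretch, shared peaks of the deciles of these 2 sites had median differences of 1.06 (percentiles 20 to 30) and 15.6 points (0 to 10). In the deciles of the upper 50%, the medians there were all negative, from -7.70 to -1.08 points.

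The 18 double-knockout-only peaks were mostly neighbours of wild-type peaks. Of these, 16 had a wild-type peak within 500 bp, or 88.9%. The share was 60.0% in the left flank, 45.5% in the right flank and 35.2% of all double-knockout-only peaks. For 14 of the 16 that neighbour was itself wild-type-only. The neighbour was wild-type-only also in the flanks for 8 of 9 and 9 of 10, and for 4248 of 6225 over the genome. The median spacing of wild-type peaks was 8.44 kb in the stretch, 11.4 and 15.1 kb in the left and right flanks and 11.1 kb over the genome. Whether spacing bears on the number of such neighbours was not tested. The 2 strongest, at chr14:70575174-70575324 with a score of 22.2 (percentile 82.3) and at chr14:70575648-70575798 with a score of 19.7 (percentile 79.8), lay on either side of the wild-type peak at chr14:70575408-70575558, at 83 and 89 bp. Next, the peak at chr14:70999605-70999755 with a score of 16.1 (percentile 74.9), lay 119 bp from the wild-type peak at chr14:70999335-70999485. The fourth, at chr14:71174286-71174436 with a score of 14.3 (percentile 71.7), lay 51 bp from a wild-type peak at chr14:71174084-71174234 of percentile 74.9. The fifth, at chr14:70553205-70553355 with a score of 12.8 (percentile 68.4), lay 98 bp from one at chr14:70553454-70553604 of percentile 82.7. All 5 thus sat beside a wild-type-only peak of higher percentile in its own list. With a gap of up to 500 bp counted as shared, 2 double-knockout-only peaks were left, against 128 wild-type-only ones.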

How the data were processed

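ATAC-seq peak lists of 1 wild-type and 1 double-knockout library were analysed. The authors deposited 1 list per library, with a score per peak in a column without a header; neither its unit nor the calling threshold is stated in the sources used here. Per the submitters' processing notes, the build was mm9 and the tools included bcl2fastq 1.8.4, Bowtie and HOMER, whose settings are not listed. Read depth, the treatment of duplicates and any shift of read ends are likewise unknown, and each could change a list.

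Coordinates are 1-based. Peaks were assigned by their centre and counted as shared with at least 1 bp of overlap. Percentiles are ranks of the score within a list, ties averaged. Shares carry exact Clopper-Pearson 95% intervals, and medians order-statistic ones. No test between genotypes was made. The class and edge steps were tested on simulated data with a sharper contrast at the edges than here and no separate double-knockout-only peaks. That test therefore does not show how well edges are found in these data. Named are the 10 strongest wild-type-only peaks, the 5 strongest kept sites and the 5 at either end of the difference in percentile, the 5 strongest double-knockout-only peaks, the 3 longest runs, and 2 peaks on either side of each edge; the 4 sites and 3 windows beyond these were chosen after their values were seen. The stretch and these lists were chosen with earlier results of the same data known. Peak sequences were not used here. The work was done in pandas 2.3.3, NumPy 2.4.6 and SciPy 1.17.1 under Python 3.11.15, with figures from matplotlib 3.10.9.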

Additional observations from a re-analysis of the deposited data

How the results depend on the processing

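No paired analysis was possible because each genotype had a single library, and no replicate could be left out. In the upper 50% of both lists by score, the overlapped share of the wild-type peaks was 15.5% (61.1% over the genome), double-knockout peaks per wild-type peak 0.227 (0.812), the surplus of wild-type-only peaks 75 in place of 121, the median percentile of wild-type-only peaks 73.1 and the median difference of the shared pairs -9.40 points (-1.40); the cut itself removes the weaker peaks. Gaps of up to 5 kb gave overlapped shares of 35.0% (wild type, 77.6% over the genome) and 100% (double knockout, 91.4%), and gaps of up to 500 bp gave 96.4% for the double knockout (83.6%). The left edge drawn from single peaks moved from 67962550 to 68696750 with gaps of up to 500 bp, to 68963730 with gaps of up to 5 kb, equal list lengths or a count of minus 2, to 69211544 in the upper 50% and to 66051622 with minus 0.5; the right edge moved from 73178009 to 70410691 with minus 2 and to 121366578 with minus 0.5. The cause was not tested. Under the other settings tried (overlap by at least 50% of both peaks, centres up to 200 bp apart, merged neighbours, limits moved by 200 kb at each end, equal list lengths) shares, ratio and medians stayed within their intervals, and the surplus was 98 to 124. Ranking among shared peaks only was added after the data were seen. Depth is unknown, so no limit of detection can be given for a site absent from a list.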
